A study of Mus musculus with 7 samples.

Results

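The vector tumours are the 3 control tumours of a series of 7 mouse tumours profiled by bulk RNA sequencing. They were chosen by their labels alone, titled Vec, Vec21 and Vec22, and every set of values below is given in that order. Each was a subcutaneous tumour of B16mhgp100 cells (also spelled B16mghp100 in the labels), a line of the B16 mouse melanoma, carrying a vector, in a C57BL/6 mouse. Every host received an antibody against PD1 at 200 µg per dose from day 10 after inoculation, with 2 doses a week and 4 doses in all, and the tumour was taken 1 day after the last dose. The other 4 tumours of the series, with Cr1l over-expression, were not compared here. The samples included no tumour without the antibody, so the profile is one under treatment and the effect of the antibody was not measured. The vector, whether the carrying cells were 1 clone, the age and sex of the hosts and the meaning of the digits in Vec21 and Vec22 were not stated in the labels.

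B16 melanoma arose in a C57BL/6 mouse and keeps the pigment programme of the melanocyte: the transcription factors Mitf and Sox10 drive enzymes and structural proteins of the melanosome, the organelle in which melanin is made. Under the skin the line grows as a mass of melanoma cells with infiltrating macrophages, few lymphocytes, and vessels and fibroblasts from the host. Antibodies against PD1 block an inhibitory receptor of activated T cells, and B16 is known as a tumour that responds poorly to them. Interferon-γ made by T and natural killer cells raises the MHC molecules that present peptides on tumour cells.

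Values are TPM, a measure of how abundant each transcript is relative to all others, corrected for transcript length, so levels of different genes can be set side by side. The table held 28233 genes, of which 12723 reached 1 TPM, 8000 reached 10 TPM and 1283 reached 100 TPM in all 3 tumours, and 3496 were listed at 0 in all 3. TPM values of a tumour sum to a constant, so an abundant group in 1 tumour lowers every other gene there. Against the mean of the 3 tumours, the median gene stood at 0.10 in Vec, -0.14 in Vec21 and 0.04 in Vec22 on the log2 scale, and a median-of-ratios scaling removes this shift. Where the level of a list is reported, it is given under both scalings if the order of the 3 tumours turned between them. The order turned in 13 lists, and the levels of some of these are not reported here. The highest, lowest and steady values of single genes are stated as deposited. Vec21 stood apart from the others by transcripts of red blood cells, epidermis and skeletal muscle, described below, and by the largest share in mitochondrial transcripts. The 3 tumours are single samples of 1 group, so differences between them are described by their size, without a test, and in bulk RNA fewer cells of a type and less RNA per cell cannot be told apart.

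The most abundant transcripts came from energy metabolism, protein synthesis, pigment and antigen presentation. The highest mean was that of Gapdh, a glycolytic enzyme, at 10730.4, 12363 and 12356 TPM, with all 3 tumours within 1.2-fold of each other. It was followed by mt-Atp6 and mt-Co1, subunits of ATP synthase and cytochrome oxidase encoded by the mitochondrial genome, at 7927, 15638 and 8173 TPM and 9254, 14938 and 7148 TPM. Both were highest in Vec21. The actin-binding peptide gene Tmsb10 stood at 7409, 12189 and 9144 TPM. Ftl1, the ferritin light chain that stores iron, stood at 8108, 6930.3 and 8642 TPM, and Eef1a1, the factor that brings aminoacyl-tRNA to the ribosome, at 6885, 5737 and 6031 TPM.

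Of the 30 genes with the highest means, 7 encode ribosomal proteins, 5 belong to the mitochondrial genome, 3 are globins and 2 belong to MHC class I (B2m and H2-K1). Pmel, Dct and Tyrp1, all pigment genes, were among the 13 others, as were Mt1, a metallothionein that binds zinc and copper, at 2968, 3638 and 4297 TPM and the cytokine gene Mif at 2956, 3158 and 3816 TPM. These 30 genes took 14.1%, 20.8% and 15.7% of all TPM, and the first 1000 genes took 62.6%, 67.6% and 65.3%. The share of the most abundant genes was highest in Vec21. Ribosomal protein genes, 77 in all, held the largest share of the gene families summed, with 14.0%, 16.3% and 14.8%. Genes of the mitochondrial genome held 4.49%, 7.30% and 3.58%, and 87 nuclear genes of the respiratory chain held 3.40%, 3.49% and 4.06%, the highest of these in Vec22.

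**Figure D1:**
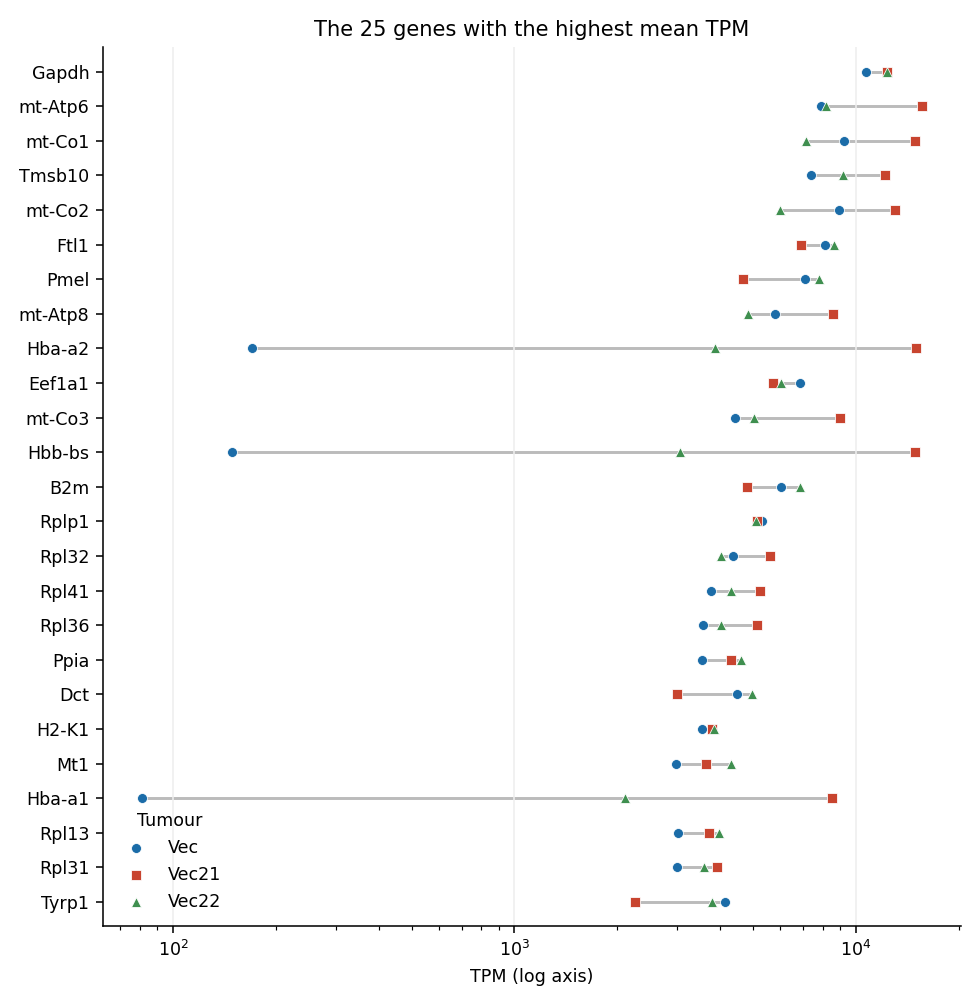
The 25 genes with the highest mean, 1 row per gene, with TPM on a log axis and 1 marker per vector tumour (Vec circle, Vec21 square, Vec22 triangle), joined by a line over their range. Most rows are short, while the globin genes Hba-a2, Hbb-bs and Hba-a1 run across the plot, as in Hba-a1 with 81.02, 8534 and 2112 TPM.

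The pigment programme was strong in every tumour. All 20 genes of the pigment list were at or above 10 TPM in all 3 tumours. Pmel, which forms the fibrils of the melanosome and is known as gp100, stood at 7081, 4681 and 7813 TPM. The line's name carries gp100, and the labels do not say whether transcripts of an introduced copy could be counted under Pmel. The melanin enzymes Dct (dopachrome tautomerase) and Tyrp1 stood at 4478, 2986 and 4956 TPM and 4143, 2257 and 3798 TPM. Tyr, tyrosinase, the enzyme of the first step of melanin synthesis, was far lower at 178, 115 and 172 TPM. Pmel, Dct and Tyrp1 were lowest in Vec21, and Vec and Vec22 lay closer to each other than to it. Mlana, a melanosome protein and T cell antigen, did not share that order, with 2160.2, 2405 and 2602 TPM.

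Ratios of Pmel, Dct and Tyrp1 to Tyr were narrower than the levels of these genes. Pmel over Tyr was 39.7, 40.8 and 45.5, and Dct over Tyr was 25.1, 26.03 and 28.8. Tyrp1 over Tyr was 23.2, 19.7 and 22.1. Pmel over Mlana, in contrast, was 3.28, 1.95 and 3.00, lowest in Vec21.

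The remaining pigment genes are transporters, receptors and vesicle proteins. Slc45a2 and Oca2, which set melanosome pH, stood at 714, 449.7 and 739 TPM and 68.3, 33.4 and 66.9 TPM, and Slc24a5, an ion exchanger of the same organelle, at 301, 233 and 294 TPM. Trpm1, a cation channel gene under Mitf control, stood at 442, 271 and 467 TPM. All of these were lowest in Vec21. Mc1r, the receptor for melanocyte-stimulating hormone, ran otherwise, with 58.03, 94.8 and 129 TPM, lowest in Vec. Ptgds, a prostaglandin D synthase gene, was at 2237, 2225 and 3376 TPM, and Gpnmb, a glycoprotein of melanosomes and of macrophages, at 2427, 1580.3 and 2255 TPM.

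Spread among the tumours was described by the ratio of the highest to the lowest value, each with 1 TPM added, over the 8893 genes averaging 10 TPM or more. A gene was called steady where that ratio was at most 1.2 and variable where it was at least 4. Over all 8893 genes, 2003 (22.5%) were steady and 241 (2.71%) were variable. Of the 8893, 8000 reached 10 TPM in all 3 tumours. A gene high in 1 tumour can pass the filter on the mean through that tumour alone. Counts of variable genes in lists of such genes are therefore partly set by the filter. Of the 20 pigment genes 0 were variable and 1 was steady, Kcnj13, a potassium channel gene, at 13.8, 13.5 and 15.8 TPM. Among pigment genes 17 of 20 were lowest in Vec21, where 49% of the 14409 genes averaging 1 TPM or more were lowest. With median-of-ratios scaling these were 14 of 20 pigment genes against 4280 of 14427 genes. The mean level of the list, as log2(TPM + 1), was 8.61, 8.17 and 8.67, and with that scaling 8.51, 8.31 and 8.63, so Vec21 remained the lowest of the 3.

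Promoters of the pigment genes are shown because these genes share a known regulator. Mitf is known to bind CATGTG, and its melanocyte targets often carry the longer form TCATGTG, which contains CATGTG. Both were searched on both strands in RefSeq promoter sequences (build GRCm38.p6, 250 bases before to 50 after each start), matched by symbol. Entries matched for 15 of the 20 pigment genes, with 17 promoters, and not for Pmel, Mlana, Slc45a2, Gpr143 and Rab38. CATGTG or its reverse complement was in 9 of the 17 (52.9%) and TCATGTG in 7 (41.2%). Over all 32851 promoters of the table the shares were 14.2% and 3.77%, and over the 9034 promoters of genes averaging 10 TPM or more they were 8.18% and 2.17%. None of 23 promoters of 13 lineage factor genes (0 of 23) held either motif in this window. The matches began 232 and 150 bases before the start of Dct, 46 before that of Tyrp1, 21 before that of Tyr and 13 before that of Slc24a5. Mc1r, which was lowest in Vec, also held matches, 62 and 51 bases before its start, while Gpnmb, lowest in Vec21, held no match. Whether matches go with the level in Vec21 was not tested. These are matches of letters, not measured binding. Capitals mark CATGTG or its reverse complement CACATG in the promoters of Dct (chr14:118052197-118052496, minus strand), Tyrp1 (chr4:80833963-80834262, plus strand), Tyr (chr7:87493463-87493762, minus strand) and Slc24a5 (chr2:125067877-125068176, plus strand).
Dct: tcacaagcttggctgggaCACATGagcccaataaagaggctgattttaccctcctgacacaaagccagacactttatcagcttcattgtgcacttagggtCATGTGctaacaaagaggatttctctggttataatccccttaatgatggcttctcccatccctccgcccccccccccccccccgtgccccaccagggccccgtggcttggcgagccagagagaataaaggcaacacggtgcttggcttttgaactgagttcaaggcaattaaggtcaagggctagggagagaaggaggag
Tyrp1: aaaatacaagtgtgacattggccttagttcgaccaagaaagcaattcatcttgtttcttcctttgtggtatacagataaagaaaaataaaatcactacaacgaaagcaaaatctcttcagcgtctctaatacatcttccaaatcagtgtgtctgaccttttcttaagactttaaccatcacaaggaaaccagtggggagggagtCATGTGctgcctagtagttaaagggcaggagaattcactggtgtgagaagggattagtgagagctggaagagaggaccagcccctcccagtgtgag
Tyr: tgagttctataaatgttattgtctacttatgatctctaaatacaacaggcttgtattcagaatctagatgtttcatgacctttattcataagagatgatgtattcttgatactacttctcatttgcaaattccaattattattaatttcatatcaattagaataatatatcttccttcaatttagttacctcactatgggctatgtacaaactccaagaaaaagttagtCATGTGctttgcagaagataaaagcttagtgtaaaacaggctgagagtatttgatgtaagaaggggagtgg
Slc24a5: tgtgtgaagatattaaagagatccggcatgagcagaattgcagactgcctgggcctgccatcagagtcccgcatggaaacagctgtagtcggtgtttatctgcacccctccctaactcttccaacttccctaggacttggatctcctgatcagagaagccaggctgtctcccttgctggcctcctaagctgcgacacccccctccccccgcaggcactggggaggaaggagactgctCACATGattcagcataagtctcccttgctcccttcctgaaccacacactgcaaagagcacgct

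The lineage factors behind the programme were expressed at lower levels than its most abundant products. Sox10 stood at 322, 311 and 411 TPM, Mitf at 161, 145 and 258 TPM and Pax3, an upstream factor of Mitf, at 87.9, 85.2 and 107 TPM. All were highest in Vec22. Met, the receptor of hepatocyte growth factor, was at 308, 140.2 and 262 TPM, and Tfap2a at 75.2, 108 and 86.3 TPM. Kit, the receptor of the melanoblast, was at 27.2, 13.9 and 32.4 TPM and Ednrb, the endothelin receptor of that lineage, at 11.2, 2.2 and 2.64 TPM, highest in Vec. Foxd3 of the neural crest was close to 0, at 0, 0.03 and 0.03 TPM. Of 11 lineage genes averaging 10 TPM or more, 0 were steady and 0 variable.

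Genes linked with dedifferentiated melanoma were mixed in level. The intermediate filament gene Vim was abundant at 2878, 2225 and 2907 TPM, the receptor kinase Axl stood at 129, 70.7 and 83.7 TPM and Cd44 at 253, 155 and 194 TPM. The markers of the neural crest-like state were near the floor: Ngfr was at 0.4, 0.12 and 0.15 TPM and Sox9 at 2.42, 4.39 and 2.82 TPM. Ccn2, a target of TGF-β and of YAP signalling that fibroblasts also make, was at 56.2, 36.96 and 9.77 TPM, highest in Vec, and among the 3 variable genes of 10 in this list. Jun was highest in Vec21, with 92.5, 124 and 60.6 TPM.

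Marker lists of the 3 broad compartments gave shares of TPM in which melanocyte genes stood above immune genes and immune genes above stroma in every tumour. The 40 melanocyte genes (pigment and lineage) held 2.87%, 2.08% and 3.12% of TPM (mean 2.69% ± 0.541, SD, n = 3). The 136 immune genes held 0.752%, 0.522% and 0.533% (0.602% ± 0.130, SD, n = 3), and the 62 stromal genes (fibroblast, endothelial and mural) held 0.464%, 0.266% and 0.206% (0.312% ± 0.135, SD, n = 3). The ratio of melanocyte to immune share was 3.81, 4.00 and 5.86, and that of melanocyte to stromal share was 6.17, 7.84 and 15.2. Both were highest in Vec22. These are shares of RNA over chosen genes and not shares of cells.

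One abundant gene weighed heavily in each share. Apoe, an apolipoprotein made by macrophages and also by melanoma cells, stood at 2238, 1915 and 2912 TPM, highest in Vec22, where 23 of 25 macrophage genes and 29.7% of all genes averaging 1 TPM or more were lowest. Without Apoe the immune share was 0.527%, 0.329% and 0.240%, so that the order of Vec21 and Vec22 turned. Sparc, a matrix protein of fibroblasts, vessels and melanoma cells, stood at 1516, 915 and 1203 TPM. Without Sparc the stromal share was 0.312%, 0.174% and 0.0845%, and without Pmel the melanocyte share was 2.15%, 1.61% and 2.34%. Without these genes, melanocyte over immune was 4.09, 4.90 and 9.73 and melanocyte over stroma was 6.90, 9.27 and 27.7.

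**Figure D2:**
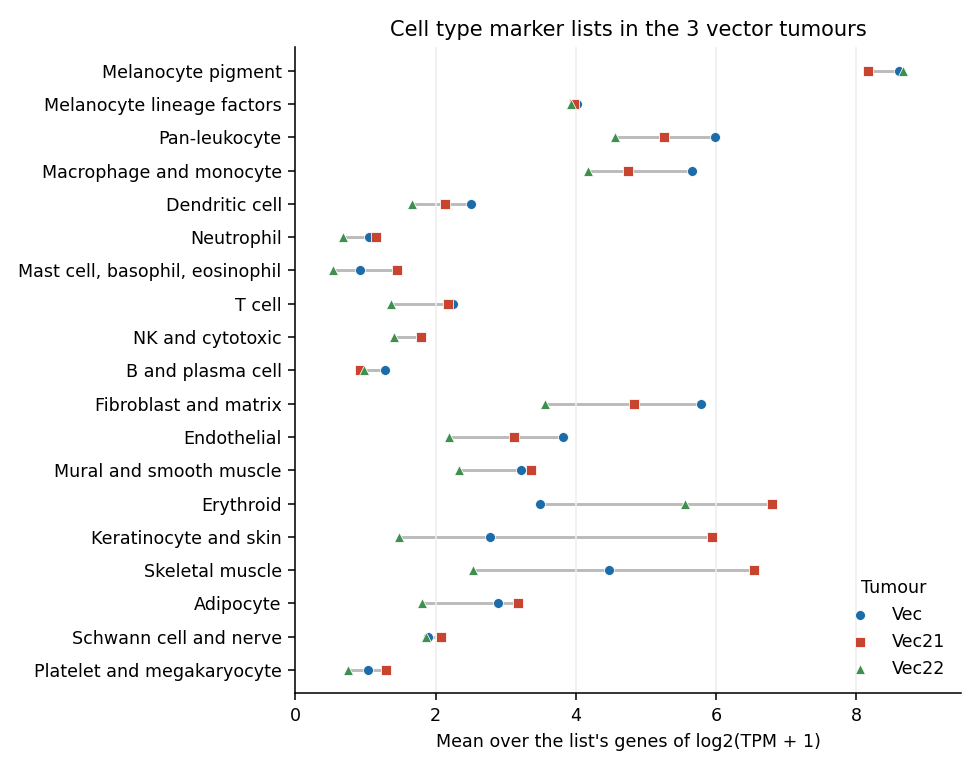
Mean over the genes of each cell type list of log2(TPM + 1), 1 row per list, with 1 marker per vector tumour and a line over their range. The pigment list stands highest, at 8.17 to 8.67, leukocyte, macrophage, fibroblast and endothelial lists run from Vec down to Vec22, and skin and muscle lists stand out in Vec21.

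Genes of the pan-leukocyte list were nearly all ordered Vec, Vec21, Vec22. This order did not hold for all immune lists: 9 of 20 T cell, 1 of 9 cytotoxic and 0 of 5 neutrophil genes followed it. The pan-leukocyte list stood at 5.99, 5.26 and 4.56 on the log2(TPM + 1) scale, and 16 of its 18 genes followed that order, which 18.1% of all genes averaging 1 TPM or more followed. All 18 were highest in Vec, where 47.1% of all genes were highest, and 15 were with median-of-ratios scaling, against 4971 of 14427 genes. Ptprc (CD45), the phosphatase of all leukocytes, stood at 21.97, 12.2 and 6.44 TPM, Laptm5 at 155, 61.5 and 29.2 TPM and Cd52 at 135, 118 and 53.6 TPM. Arhgdib, the most abundant gene of the list, was flatter at 654, 480.0 and 526 TPM. Of 16 genes averaging 10 TPM or more, 3 were variable, Laptm5, Cytip and the granule proteoglycan gene Srgn at 143, 62.1 and 26.5 TPM.

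Macrophage genes stood highest of the lists for single immune cell types. Their list stood at 5.66, 4.75 and 4.18, with 22 of 25 genes in the same order, against 18.1% of all genes. Lyz2, the lysozyme of myeloid cells, was at 415, 207 and 98.5 TPM. The complement components C1qa and C1qb, typical products of tissue macrophages, were at 318, 181 and 111 TPM and 307, 191 and 125 TPM, and C1qa over C1qc kept to 1.502, 1.51 and 1.33. Cd68 was at 96.8, 55.8 and 43.9 TPM. Variable genes were 7 of 21 with a mean of at least 10 TPM, among them Csf1r, the receptor for the macrophage growth factor, at 41.7, 17.4 and 7.95 TPM, Adgre1 (F4/80) at 29.9, 9.76 and 4.48 TPM and the endotoxin co-receptor Cd14 at 73.2, 15.9 and 5.53 TPM. Spp1, osteopontin, did not follow the order, with 391, 187 and 324 TPM. Of polarisation markers, Arg1 was at 16.4, 15.9 and 10.9 TPM, Mrc1 at 27.4, 7.28 and 5.68 TPM and Nos2 at 9.83, 1.94 and 1.6 TPM.

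Dendritic cell genes were low. Their list stood at 2.51, 2.13 and 1.67, with 8 of 9 genes in the order of Vec, Vec21 and Vec22, against 18.1% of all genes. Ccr7, the receptor that guides mature dendritic cells and naive T cells to lymph nodes, was at 6.96, 1.68 and 0.44 TPM. The defining genes of the cross-presenting subset, Xcr1 and Clec9a, were at 0.13, 0.05 and 0.07 TPM and 0.39, 0.16 and 0.16 TPM. Neutrophil genes were close to the floor, at 1.05, 1.15 and 0.67, with Ly6g listed at 0 in all 3 tumours and S100a8 at 5.71, 12.98 and 1.95 TPM. Mast cell proteases were highest in Vec21, as Mcpt4 with 5.6, 19.5 and 1.8 TPM, while Prss34 was listed at 0 throughout. The B cell gene Ms4a1 was also listed at 0 in all 3, and Igkc, the κ light chain constant region, stood at 17.1, 2.47 and 5.62 TPM.

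T cell transcripts were present at a few TPM. Cd3e, a subunit of the T cell receptor complex, stood at 3.33, 3.66 and 1.83 TPM, Cd8a at 4.04, 4.44 and 1.86 TPM and Cd4 at 1.59, 1.52 and 0.33 TPM, so that Cd8a exceeded Cd4 in each tumour, with ratios of 2.54, 2.92 and 5.64. The last of these rests on Cd4 below 1 TPM. The list stood at 2.26, 2.17 and 1.37. Vec and Vec21 were thus nearly level, and with median-of-ratios scaling, at 2.18, 2.28 and 1.35, their order turned. In Vec22, 19 of 20 T cell genes were lowest, against 29.7% of all genes. Foxp3 of regulatory T cells was at 1.34, 1.03 and 0.68 TPM. Tcf7, the most abundant gene of the list and a factor of T cells that also occurs in other lineages, was at 29.3, 16.9 and 17.8 TPM.

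Cytotoxic genes were not ordered like the pan-leukocyte genes. Gzmb, a granzyme of killer cells, stood at 9.7, 15.03 and 9 TPM, Nkg7 at 9.77, 10.2 and 6.07 TPM and Prf1, perforin, at 1.98, 2.11 and 1.63 TPM. Gzmb was highest in Vec21, and Prf1 differed little among the tumours. The chemokine gene Ccl5, made by such cells and by others, was at 67.3, 47.96 and 33.1 TPM. Ifng itself was at 0.43, 1.19 and 0.07 TPM, highest in Vec21.

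The target of the antibody and its ligands followed the order of the pan-leukocyte list. Pdcd1, which encodes PD1, was at 4.56, 2.17 and 0.98 TPM. Its ligand gene Cd274 (PD-L1), which tumour cells and macrophages make, was higher at 40.7, 27.4 and 16.6 TPM, and the second ligand Pdcd1lg2 was at 1.91, 0.49 and 0.2 TPM. Other inhibitory receptors of T cells, Ctla4, Tigit, Lag3 and Havcr2, stood at 11.6, 9.2 and 3.69 TPM, 9.55, 3.36 and 2.01 TPM, 5.25, 4.21 and 3.02 TPM and 9.46, 4.55 and 4.07 TPM. In the checkpoint list 12 of 15 genes averaging 1 TPM or more were ordered Vec, Vec21, Vec22, against 18.1% of all genes. The list stood at 2.74, 2.15 and 1.80. Lgals9, galectin-9, was the most abundant of them at 196, 123 and 162 TPM and was lowest in Vec21.

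Fibroblast and matrix genes differed most between Vec and Vec22. Their list stood at 5.79, 4.83 and 3.56. In that order were 24 of 26 genes, against 18.1% of all genes, and 17 of 22 were variable, against 2.71%. Of the 26 genes, 10 reached 10 TPM in all 3 tumours, so the filter on the mean bears on that count. Fibrillar collagens showed it plainly. Col3a1 stood at 421, 139 and 44.5 TPM and Col1a1 at 369.7, 127 and 39.3 TPM, and Col1a1 over its partner chain Col1a2 was 1.47, 1.38 and 1.53, close to constant. With 1 TPM added, Col1a1 was 9.19-fold and Col1a2 9.42-fold higher in Vec than in Vec22. Bgn, a small proteoglycan of the matrix, was at 232, 131 and 33.8 TPM and Postn, periostin, at 138, 112 and 17.1 TPM. All 44 collagen genes together held 0.175%, 0.0729% and 0.0340% of TPM, and 11 of the 15 collagens with a mean of at least 10 TPM were variable.

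Endothelial genes followed the same order at lower levels. Pecam1 (CD31) stood at 29.8, 13.4 and 4.7 TPM, Cdh5, the cadherin of vessel walls, at 27.1, 10.5 and 3.2 TPM and Plvap, of fenestrated capillaries, at 77.03, 35.8 and 14.7 TPM. The list stood at 3.81, 3.12 and 2.20. In that order were 16 of 21 genes, against 18.1% of all genes, and 4 of 8 were variable, against 2.71%. Only 4 endothelial genes reached 10 TPM in all 3 tumours, so the filter bears on that count too. Eng was flatter, with 150.5, 119 and 137 TPM. Mural genes, with a list level of 3.23, 3.36 and 2.34, differed most between Vec21 and Vec22 and were split: the pericyte genes Rgs5 and Pdgfrb were at 22.9, 12.8 and 7.49 TPM and 9.86, 6.79 and 3.07 TPM, in the order of the vessels, while the contractile genes Acta2 and Tagln were highest in Vec21, at 23.7, 32.4 and 9.78 TPM and 17.2, 38.01 and 8.73 TPM. Muscle genes stood highest in Vec21 as well, as described next.

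Vec21 carried transcripts of blood, skin and muscle at far higher levels than both other tumours. Blood genes were lowest in Vec, and skin and muscle genes, apart from Lgals7, were lowest in Vec22. The α-globin genes Hba-a2 and Hba-a1 stood at 170.4, 14986 and 3874 TPM and 81.02, 8534 and 2112 TPM, and the β-globin genes Hbb-bs and Hbb-bt at 148, 14859 and 3051 TPM and 15.3, 2817 and 630.3 TPM. Hba-a1 and Hba-a2 are near-identical, so the split between them is uncertain. Alas2, the haem enzyme of red cell precursors, was at 1.23, 88.5 and 27.1 TPM, and Slc4a1, the anion exchanger of the red cell membrane, at 0, 2.4 and 0.73 TPM. Globins took 0.0417%, 4.14% and 0.973% of TPM, and Hba-a2 over Hbb-bs was 1.15, 1.01 and 1.27.

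Epidermal genes were led by the lectin gene Lgals7 with 140.3, 631 and 222 TPM. All 19 skin genes were highest in Vec21, where 20.7% of all genes were highest, and 14 of 14 with a mean of at least 10 TPM were variable. Only 1 skin gene reached 10 TPM in all 3 tumours. The filter on the mean thus favoured genes high in Vec21, and the count of variable genes is no separate support. Krt5 and Krt14, the keratin pair of the basal layer, stood at 8.06, 205 and 0.95 TPM and 7.22, 228 and 1.85 TPM. Krt1 and Krt10, the pair of the upper layers, stood at 7.96, 148 and 1.8 TPM and 24.1, 259.8 and 2.98 TPM, and Krtdap, a gene of differentiating keratinocytes, at 16.6, 411 and 2.13 TPM. Sprr2a2, a precursor of the cornified envelope, was listed at 0 in Vec and Vec22 and at 257 TPM in Vec21. The skin list stood at 2.78, 5.94 and 1.48. Cdh1, E-cadherin, a gene of keratinocytes that the lineage list also holds, moved with them at 1.46, 10.2 and 1.14 TPM.

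Skeletal muscle genes showed the same rank. All 18 were highest in Vec21 and lowest in Vec22, against 20.7% and 29.7% of all genes. Of those with a mean of at least 10 TPM, 16 of 16 were variable. Only 3 of the 18 reached 10 TPM in all 3 tumours. The filter on the mean thus favoured genes high in Vec21 here too, and this count is no separate support. Acta1, the actin of skeletal muscle, stood at 129.9, 643 and 25.04 TPM, Ckm, the muscle creatine kinase, at 57.01, 243 and 8.13 TPM and Myh4, a fast myosin, at 26.6, 104 and 2.08 TPM. The list stood at 4.47, 6.55 and 2.54. In Vec, then, muscle genes were between the others, with Tnnt3, a fast troponin, at 49.3, 279 and 9.86 TPM. Fat cell genes stood at 2.89, 3.18 and 1.81. All 10 averaging 1 TPM or more were lowest in Vec22, where 29.7% of all genes were. Of 5 with a mean of at least 10 TPM, 2 were variable and highest in Vec21. These were Car3, a carbonic anhydrase, at 27.6, 139 and 6.7 TPM and Cfd, adipsin, at 23.9, 33.6 and 6.02 TPM. Car3 is also a member of the muscle list. Fabp4, which binds fatty acids, was at 110.0, 119 and 40.6 TPM, and Adipoq, specific to adipocytes, was low at 2.13, 1.47 and 0.6 TPM. The part that skin, muscle and blood transcripts play in the lower pigment level of Vec21 was not tested. Without the mitochondrial genome and globins in the total, the pigment list stood lower in Vec21 than in Vec by 0.34 in place of 0.44 on the log2 scale.

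**Figure D3:**
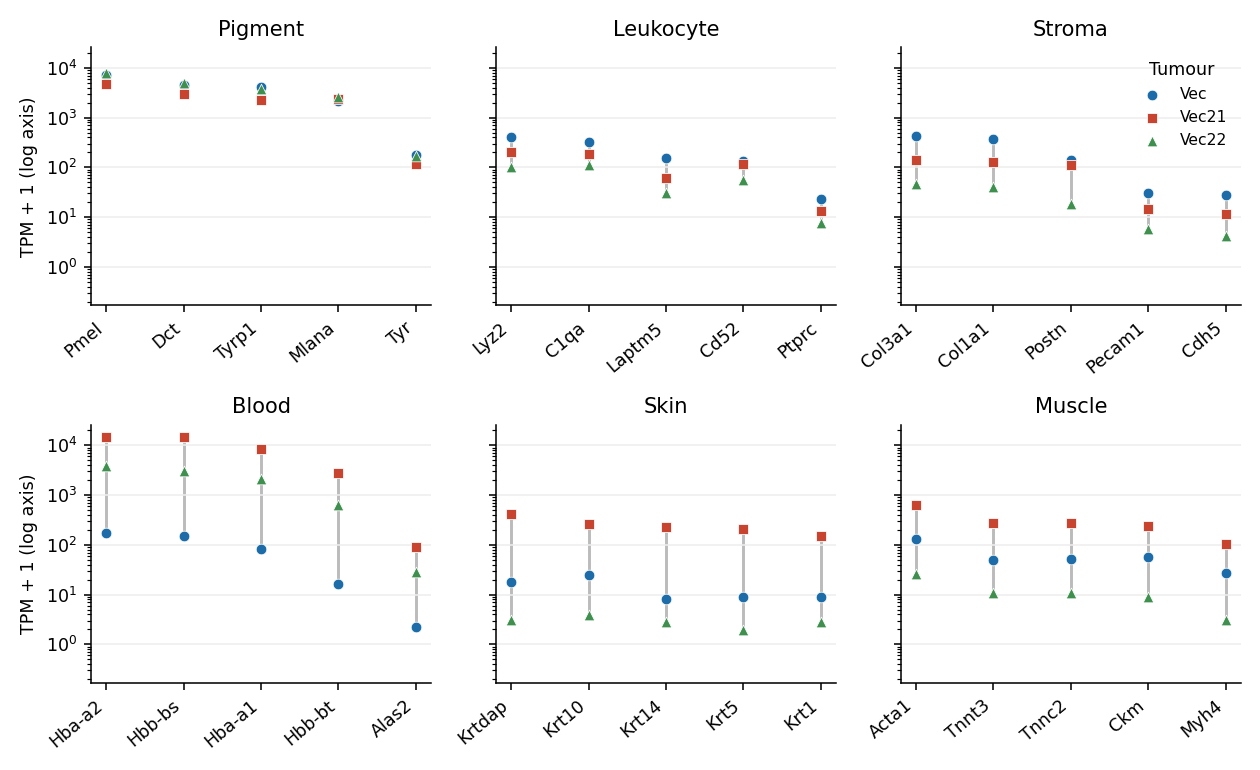
Levels of 5 genes for each of 6 groups in the vector tumours, as TPM + 1 on a log axis, with 1 marker per tumour and a line over their range. Pigment genes lie close together, leukocyte and stromal genes descend from Vec (circle) to Vec22 (triangle), and blood, skin and muscle genes stand highest in Vec21 (square).

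Antigen presentation through MHC class I was high in every tumour. B2m, the light chain, stood at 6041, 4794 and 6885 TPM, and the heavy chains H2-K1 and H2-D1 at 3541, 3793 and 3843 TPM and 1882, 1451 and 1861 TPM. H2-K1 was steady as deposited. The peptide transporter Tap1 stood at 235, 195 and 201 TPM, the immunoproteasome subunits Psmb8 and Psmb9 at 541, 423 and 545 TPM and 258, 220.4 and 292 TPM, and Nlrc5, the transactivator of class I genes, at 126, 118 and 159 TPM. All 18 genes of the list were at or above 10 TPM in all 3 tumours, and 0 were variable, where 2.71% of all genes were. Steady genes were 3 of 18 (16.7%), no more than the 22.5% of all genes. The level of the list was 8.44, 8.14 and 8.24, and with median-of-ratios scaling, at 8.34, 8.28 and 8.21, the order of Vec21 and Vec22 turned. H2-Q7, a non-classical gene, was at 76.2, 53.9 and 19.7 TPM.

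MHC class II, carried by macrophages, dendritic cells and B cells and inducible on melanoma cells, was highest in Vec. Cd74, the invariant chain, stood at 2168, 1011 and 1120.4 TPM, H2-Aa at 729.7, 437 and 384 TPM and H2-Eb1 at 775, 393 and 324 TPM. The class II transactivator Ciita was at 9.81, 4.4 and 5.51 TPM. Vec21 and Vec22 lay close to each other in these genes, unlike in the pan-leukocyte list, where Vec22 was well below Vec21. All 8 class II genes averaging 1 TPM or more were highest in Vec, where 47.1% of all genes were.

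Interferon response genes were expressed throughout. Of 18 genes induced by interferon-γ, 14 were highest in Vec, where 47.1% of all genes were. With median-of-ratios scaling 13 were, against 4971 of 14427 genes. Their list stood at 6.21, 5.62 and 5.65, and with that scaling, at 6.11, 5.75 and 5.62, the order of Vec21 and Vec22 turned. Irf1, not highest in Vec, stood at 68.4, 101 and 87.3 TPM, Irgm1 at 299, 218 and 286 TPM and Gbp2 at 245, 123 and 125 TPM. Cxcl9 and Cxcl10, chemokines that draw activated T cells and are both induced by interferon-γ, went apart: Cxcl9 was variable at 86.4, 18.6 and 6.79 TPM, while Cxcl10 was at 185, 255 and 229.5 TPM. Of the type I interferon response, Bst2 (tetherin) stood at 1437, 1328 and 2164 TPM, highest in Vec22, Isg15 at 252, 344 and 297 TPM and Ifit3 at 143, 149 and 173 TPM. All 20 of these type I genes had a mean of at least 10 TPM, 4 were steady (20%, against 22.5% of all genes) and 0 variable.

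Proliferation genes were expressed in every tumour, with a spread like that of all genes. Mki67 stood at 89.3, 80.6 and 95.5 TPM and was steady, Top2a at 204, 137 and 180.3 TPM, Cdk1 at 251, 231 and 268 TPM and Pcna, the sliding clamp of DNA replication, at 362, 303 and 353 TPM. Of 31 cell cycle genes averaging 10 TPM or more, 6 were steady (19.4%, against 22.5% of all genes) and 0 variable, and their median SD of log2(TPM + 1) was 0.25, against 0.23 over all genes. In Vec21, 28 of 32 were lowest, where 49% of all genes were. With median-of-ratios scaling this was 18 of 32, against 4280 of 14427 genes, so the count dropped along with that over all genes. The list stood at 6.60, 6.23 and 6.55, and with that scaling at 6.50, 6.37 and 6.51, where the order of Vec and Vec22 turned.

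The INK4 inhibitors of the cell cycle were split. Cdkn2a and Cdkn2b were below 1 TPM in every tumour, while Cdkn2c and Cdkn2d stood at 56.5, 64.2 and 100.3 TPM and 57.03, 66.9 and 70.4 TPM, both lowest in Vec. Cdkn2a, which B16 is known to lack, was at 0.65, 0.7 and 0.33 TPM, and its neighbour Cdkn2b at 0.29, 0.66 and 0.12 TPM. Other brakes of growth were expressed: Cdkn1a (p21) stood at 162, 123 and 124 TPM, Cdkn1b (p27) at 87.3, 96.7 and 84.2 TPM and Trp53 at 69.1, 51.4 and 66.02 TPM. Of the oncogene pathway, Braf was at 20, 12.4 and 11.8 TPM and the MAP kinase feedback gene Dusp6 at 139.7, 194 and 165 TPM. Hras was steady at 91.5, 89.1 and 92.7 TPM.

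Of sex-linked genes, Xist, the RNA of the inactive X chromosome, stood at 16.04, 15.6 and 7.22 TPM and the Y-linked Kdm5d at 0, 0.01 and 0 TPM. Neither can be ascribed to host or tumour cells here, and other Y-linked genes were not analysed here. Cr1l, the gene over-expressed in the other arm of the series, encodes Crry, a membrane inhibitor of complement, and its own level in vector tumours was steady at 52.4, 46.3 and 54.9 TPM.

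Glycolysis and hypoxia genes were abundant and tended to be highest in Vec22. Ldha, lactate dehydrogenase, stood at 2397, 2281 and 2985 TPM, Pgk1 at 2416, 2307 and 2878 TPM and Pkm at 2469.7, 2164 and 2655 TPM. Gpi1 was at 1085, 1312 and 1914 TPM. Car9, a carbonic anhydrase, stood at 56.1, 81.6 and 146 TPM, Bnip3 at 204, 248 and 323 TPM and Vegfa at 158, 183 and 204 TPM. These 3 targets of the hypoxia-inducible factor were lowest in Vec, as were 8 of the 25 genes in the list, while 15, among them Ldha and Pgk1, were lowest in Vec21. With median-of-ratios scaling these counts turned, with 17 lowest in Vec and 6 in Vec21. Over all genes, 3078 of 14409 were lowest in Vec and 7058 in Vec21 as deposited, and 4865 and 4280 of 14427 with that scaling. Of 25 genes in this list 18 were highest in Vec22, where 32.2% of all genes were highest, and 17 were with that scaling, against 4169 of 14427 genes. The list stood at 7.90, 7.87 and 8.15, and with that scaling, at 7.80, 8.01 and 8.11, the order of Vec and Vec21 turned. Hk2, a hexokinase, ran the other way, with 160.2, 111 and 105 TPM.

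Stress genes were described by 3 lists. Immediate early genes, which rise within minutes of a stimulus, stood at 5.64, 5.51 and 4.49. In Vec22, 17 of 18 were lowest, against 29.7% of all genes. With median-of-ratios scaling, at 5.54, 5.65 and 4.46, Vec21 stood above Vec. Fos was at 178, 137 and 65.8 TPM, Dusp1 at 127, 72.1 and 28.99 TPM and Fosb at 32.9, 32.1 and 5.77 TPM, while Jund was flatter at 255, 223 and 222 TPM. Heat shock and unfolded protein genes were more even, at 7.52, 7.38 and 7.43, as Hspa8 with 1636, 1255 and 1430.2 TPM. Vec21 went from lowest to highest with that scaling, at 7.42, 7.52 and 7.39. Hspb1 was highest in Vec21 at 118, 189.7 and 101 TPM. Iron and antioxidant genes stood at 7.77, 7.60 and 7.86, and with that scaling, at 7.67, 7.73 and 7.82, Vec became the lowest. Fth1 was at 3753, 2898 and 3261 TPM and Hmox1, which degrades haem, at 148, 95.3 and 168 TPM. Slc7a11, the cystine carrier, was at 1.23, 0.34 and 0.85 TPM. Lysosome genes, shared by melanosomes and macrophages, were lowest in Vec21 in 17 of 18, as Ctsd with 1103, 686 and 939 TPM, and in 11 of 18 with median-of-ratios scaling, against 49% of all genes and 4280 of 14427.

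Cytokine genes set Vec apart from the other tumours. Of 30 genes averaging 1 TPM or more, 25 were highest in Vec, and 24 were with median-of-ratios scaling. Over all genes these were 47.1% and 4971 of 14427. Il6 was at 18.1, 0.72 and 0.18 TPM and Il1b at 15.8, 1.46 and 0.57 TPM, each above 10 TPM in Vec alone. The neutrophil-drawing chemokines Cxcl1 and Cxcl2 stood at 27.3, 2.35 and 2.24 TPM and 28.5, 3.25 and 3.62 TPM, and the alarmin Il33 at 30.6, 3.26 and 2.46 TPM. In Cxcl1, Cxcl2 and Il33 the values of Vec21 and Vec22 lay close together. Ccl8, a monocyte chemokine, was level in Vec and Vec21, with 362, 368 and 155 TPM. Ccl21a, made by lymphatic vessels, was highest in Vec21 at 10.8, 28.1 and 3.12 TPM.

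Complement genes besides C1q were split in the same way. C3, the central component, was variable at 107, 17.9 and 15.2 TPM, and its cofactor gene Cfb stood at 84.95, 46.4 and 27.5 TPM. C2 ran otherwise, with 225, 188 and 252 TPM. The receptor for C5a, C5ar1, was at 15.03, 1.49 and 2.36 TPM, and the regulators Cd55 and Cd59a were at 4.12, 3.44 and 0.89 TPM and 11.4, 13.7 and 14.5 TPM. The list stood at 5.40, 4.64 and 4.26.

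Genes of the mitochondrial genome differed among each other in Vec22. While mt-Atp6, mt-Co1 and mt-Co2 were at 7927, 15638 and 8173, 9254, 14938 and 7148 and 8945, 13069 and 5985 TPM, the complex I genes mt-Nd3, mt-Nd5 and mt-Nd6 were variable, at 331, 450.4 and 51.6, 298, 359.9 and 83.4 and 177, 138 and 23.7 TPM. The ratio of mt-Atp6 to mt-Nd3 was 23.9, 34.7 and 158. These transcripts come from the same long precursors, except mt-Nd6, which lies on the other strand, and the libraries did not keep strand. Nuclear copies of mitochondrial sequence can share such reads, so the values of single genes are uncertain. Of the 15 genes 13 were highest in Vec21 and 13 lowest in Vec22, against 20.7% and 29.7% of all genes.

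Steady genes were frequent in protein turnover under each scaling and in protein synthesis as deposited. Proteasome subunits were steady in 21 of 38 and ribosomal proteins in 36 of 77, with 0 variable in either group, against 22.5% of all genes. The median SD of log2(TPM + 1) was 0.14 for proteasome subunits and 0.15 for ribosomal proteins, against 0.23 over all 8893 genes. With median-of-ratios scaling, 21 of 38 proteasome subunits were again steady, but 11 of 77 ribosomal proteins were, against 30.1% of 8881 genes. The ribosomal genes, highest in Vec21 in 55 of 77 (20.7% of all genes were), thus counted as steady or not by the scaling. The nuclear respiratory chain, with 18 of 80 steady as deposited, was at the background share. As deposited, the most abundant steady genes were Gapdh, Eef1a1, Rplp1 and H2-K1, and Rplp1, a stalk protein of the ribosome, stood at 5309, 5148 and 5104 TPM. Mt2, a metallothionein, and Ubb, a ubiquitin gene, were also steady, at 2491, 2422 and 2764 TPM and 1960.3, 2129 and 2025 TPM.

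Some genes averaging 100 TPM or more had a very small coefficient of variation (CV, SD over mean). Eif4a2, a helicase of translation initiation, stood at 229, 229.9 and 229 TPM with a CV of 0.260%, and Txn1, thioredoxin, stood at 604, 616 and 606 TPM and 1.02%. Naa12, Tceal9, Rpl7, Psmd4, Btf3, Rps26 and Ppib were also among the narrowest, up to 1.59% for Ppib. These ranks rest on 3 values a gene and on the scaling: with median-of-ratios scaling the CV was 9.24% for Eif4a2 and 10.05% for Txn1. Of common reference genes, Actb (β-actin) had a CV of 9.09% as deposited and 0.438% with that scaling, where it stood at 1313, 1302 and 1309.8. Gapdh went the other way, from 7.96% to 15.4%. Hprt stood at 8.48% and 8.40%, Gusb at 24.7% and 16.7% and Sdha at 30.4% and 23.04%. Which genes were steadiest therefore depended on the scaling, and Gusb and Sdha were wide under both.

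**Figure D4:**
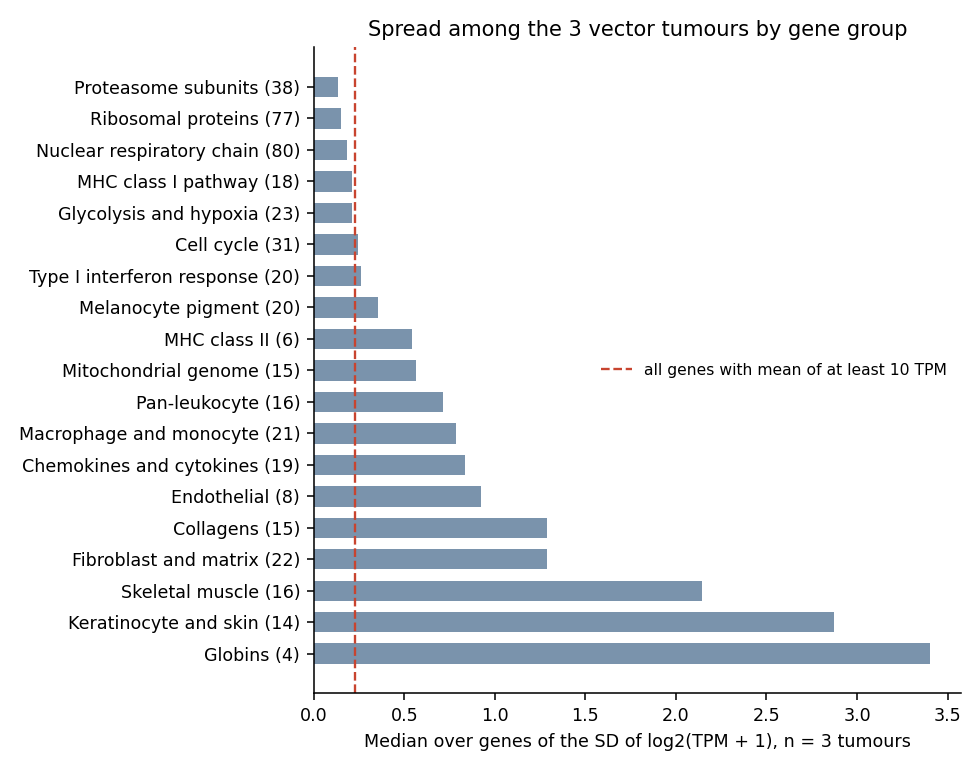
Median over genes of the SD of log2(TPM + 1) among the 3 vector tumours, as bars from 0, for groups of genes averaging 10 TPM or more (number of genes in brackets). Proteasome subunits (0.14) and ribosomal proteins (0.15) are below the dashed line of all genes (0.23) as deposited, while collagens (1.29), muscle (2.15), skin (2.87) and globins (3.40) are far above it.

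The 241 variable genes were counted by the tumour with the highest and the lowest value. Vec held the highest value in 117, Vec21 in 103 and Vec22 in 21, and Vec22 held the lowest value in 179. Among all 14409 genes averaging 1 TPM or more, 47.1% were highest in Vec, 20.7% in Vec21 and 32.2% in Vec22. In Vec22, 29.7% were lowest. The count for Vec was thus near its share over all genes. In 97 of the 241 variable genes the range ran from Vec down to Vec22, an order that 18.1% of the 14409 genes followed. In 82 it ran from Vec21 down to Vec22. The 14409 genes passed a lower filter (1 TPM) than the 241 (10 TPM), so these shares are not like for like. Vec21 was at least 4-fold above both other tumours in 74 genes, Vec in 30 and Vec22 in 10. Of all 241, 144 were in none of the lists or families and 50 were predicted genes or receptor segments.

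Genes highest in Vec included matrix and wound genes beyond the lists. Thbs1, thrombospondin, stood at 152, 25.9 and 8.72 TPM and Tnc, tenascin C, at 86.6, 20.2 and 5.21 TPM. Igfbp3, which binds insulin-like growth factors, was at 115, 20.03 and 9.01 TPM, and Ptx3, a pattern recognition protein induced by cytokines, at 54.1, 5.68 and 10.7 TPM. In both Thbs1 and Tnc, Vec stood well above Vec21 and Vec21 above Vec22. Genes highest in Vec21 and outside the skin list included Dmkn, of the epidermis, at 9.94, 126 and 0.16 TPM and Krt17, a keratin of hair follicles and wounded skin, at 2.94, 69.6 and 0.05 TPM. Stfa3, a stefin, was at 0.65, 99.4 and 0.51 TPM, Cstdc5 at 0.24, 122 and 0 TPM and Defb6, a β-defensin, at 1.68, 65.5 and 0 TPM, each near 0 in both other tumours.

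Spread was narrower at higher expression. The median SD of log2(TPM + 1) was 0.25 in 3968 genes with means of 10 to 30 TPM and 0.19 in 453 genes at or above 300 TPM, and the steady share was 18.3% and 28.9%. The variable share fell from 3.98% at 10 to 30 TPM to 1.75% at 30 to 100 TPM and 1.37% at 100 to 300 TPM, and was 1.99% at or above 300 TPM. Counting error could not be computed from TPM, so its part in the wider spread of low genes was not tested.

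**Figure D5:**
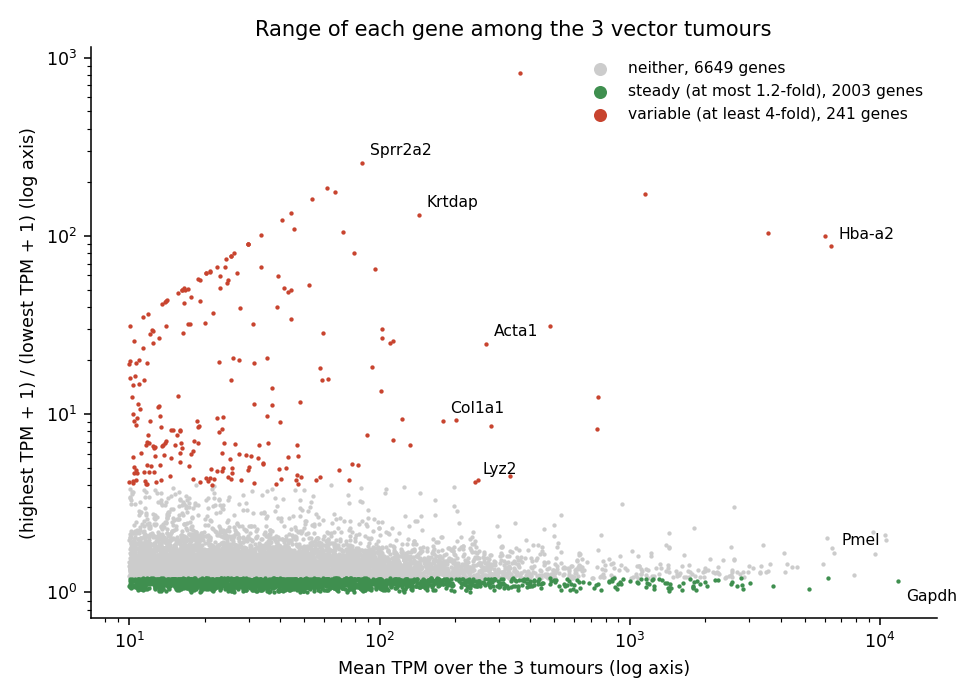
Each point is 1 of 8893 genes, with mean TPM over the 3 vector tumours (log axis) against the highest over the lowest value, each plus 1 TPM (log axis), coloured as steady (2003), variable (241) or neither (6649). Pigment and metabolic genes such as Pmel and Gapdh lie near the bottom at high means. The labelled globin, skin and collagen genes Hba-a2, Krtdap and Col1a1 lie above 4-fold.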

How the data were processed

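The authors isolated RNA of whole tumours with TRIzol, captured it on poly-T beads and built libraries without strand information, per the labels' protocols, so reads of overlapping and antisense genes cannot be told apart. RSEM and DESeq2 with the mm39 build are named in the submitters' processing notes, and the aligner, the annotation, versions and read numbers were not stated there. The authors deposited expression as log2(TPM + 1) for each gene symbol. Undoing the logarithm gave TPM with 2 decimals and totals of 995143, 994357 and 993520 in Vec, Vec21 and Vec22. TPM keeps no depth, so no counting error, interval or floor is given, and a value of 0 means only that a gene is listed at 0.

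Replicates are 3 tumours with separate numbers (5, 6 and 7) in the labels, and no test was run on them. Shares of TPM, list levels (means of log2(TPM + 1) over a list), CV, SD and ranges were computed with pandas 2.3.3 and numpy 2.4.6 in Python 3.11.15, and figures were drawn with matplotlib 3.10.9. The code for the calls of steady and variable genes was run on constructed data, as a check of the code only. How reliable the calls are in these tumours was not tested. The pseudocount was 1 TPM and the filter a mean of at least 10 TPM, or 1 TPM for counts of the highest or lowest tumour. Alternatives were another filter, pseudocount, threshold and scaling, and leaving out each tumour. Genes with near-identical copies (globins, ribosomal proteins and mitochondrial genes with nuclear copies) are uncertain where the counting could split them.

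The 36 lists hold 661 genes, of which 650 were found. Members and lists were chosen with earlier results of these data known. The rule for names took the 30 most abundant genes, the top 5 of each list and its genes at 0 in all tumours, 15 steady genes each by mean and by CV, 15 variable genes each by range and by mean, and a fixed set (such as Tyr, Ptprc, Pdcd1, Cd274, Mki67, Xist). Other genes in the text are lower-ranked members of the lists or, outside them, Thbs1, Tnc, Igfbp3, Ptx3, Rpl38-ps2, Pgk1-rs7, Snora43, Gm28437 and Gm10925, and were named after their values were seen. Some genes that the rule takes are not reported here. Promoter sequences come from RefSeq, build GRCm38.p6, used by symbol alone because the deposited values rest on mm39.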

Additional observations from a re-analysis of the deposited data

How the results depend on the processing

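Counts of steady and variable genes depended on the filter and the threshold. The 2003 steady genes became 881 at a mean of at least 50 TPM, 7459 without a filter and 582 at a limit of 1.1-fold. The 241 variable genes became 44 at a mean of at least 50 TPM, 705 both at a mean of at least 1 TPM and without a filter, and 139 at a limit of 8-fold. Leaving out each tumour in turn gave 3659 to 5071 steady and 131 to 157 variable genes because ranges over fewer samples are narrower. Median-of-ratios scaling gave 2673 steady genes, of which 1172 were among the 2003, and 234 variable genes, of which 226 were among the 241. The variable genes were thus nearly the same and the steady ones were not, and steady ribosomal proteins went from 36 to 11 of 77. The mean melanocyte share was 2.03% without Pmel and the immune share 0.365% without Apoe. Leaving out each tumour gave melanocyte shares of 2.48% to 2.99%, immune shares of 0.528% to 0.642% and stromal shares of 0.236% to 0.365%.

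The order of the 3 tumours in list level was the same in 31 of 36 lists with a pseudocount of 0.1, in 35 over genes averaging 1 TPM or more, in 31 without mitochondrial genes and globins and in 23 with median-of-ratios scaling. Scaling was chosen for the list differences after seeing the data. With median-of-ratios scaling the Vec minus Vec22 difference in list level was 1.37 in place of 1.43 for pan-leukocyte and 2.17 in place of 2.24 for fibroblast genes, the Vec21 minus Vec difference was 3.37 in place of 3.16 for skin genes, and for cell cycle genes it was -0.13 in place of -0.37. The erythroid difference of 3.31 became 1.40 without globins, by construction. No paired analysis was possible because the tumours are of 1 group. Depth is unknown, so differences between genes of a few TPM, such as T cell genes, have no counting error.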

Other observations

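All 21 variable genes that were highest in Vec22 were predicted genes, small RNA genes or copies of other genes. The ribosomal copy Rpl38-ps2 stood at 21.3, 26.8 and 97.5 TPM, Pgk1-rs7, a relative of Pgk1, at 0, 19.9 and 61.01 TPM and the small nucleolar RNA Snora43 at 0, 0 and 41.6 TPM, while Pgk1 itself was at 2416, 2307 and 2878 TPM. In Vec, Rpl39-ps was listed at 186 TPM against 0 in both other tumours, and the Cajal body RNA Scarna3a at 73.01, 0 and 0 TPM. The predicted genes Gm28437 and Gm10925 stood at 1297, 107 and 40.8 TPM and 1644, 376 and 198 TPM. Near-identical copies can exchange reads with their source genes in the authors' counting, so these values are uncertain.

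The tumours correlated in log2(TPM + 1) across the 8893 genes averaging 10 TPM or more by a Pearson r of 0.916 for Vec and Vec21, 0.923 for Vec and Vec22 and 0.911 for Vec21 and Vec22. These are values across genes, which are not independent replicates.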
